A study of Mus musculus with 8 samples.

Results

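The mitochondrial ribosomal protein genes encode the protein part of the ribosome inside mitochondria. They were taken as all rows of the expression table whose symbol is Mrpl followed by a number, for the large subunit, or Mrps followed by a number with or without a letter a, b or c, for the small subunit. This gave 77 genes of 46477 rows, 48 named for the large and 29 for the small subunit. Of these, 64 had a mean of at least 1 FPKM (fragments per kilobase of gene, corrected for library depth, the authors' unit) over the 8 libraries and entered the tests, 41 of the large and 23 of the small subunit.

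RNA came from B16-F10 cells, a mouse melanoma line, cultured for 24 hours on a matrix laid down by smooth muscle cells that had then been lysed. The smooth muscle cells had first received siRNA for 72 hours and after that a medium, named SFM or TCM in the labels, for 72 hours. The siRNA was siNT, siKLF4, siFN or siKLF4 with siFN (written siKLF4-siFN), which makes 8 conditions with 1 library each. All libraries share the cell line and the smooth muscle matrix, and the siRNA never acted on the cells that were sequenced, so the level of the targeted genes in these libraries does not check the labels. No condition was repeated, so the tests let libraries that share a medium or an siRNA stand in for replicates, and the p-values reflect no more than the spread among 8 single libraries. Of the melanocyte markers, which fit the labelled line, 6 of 7 had a mean of at least 1 FPKM, with a summed level from 351 to 554 FPKM. Of 8 smooth muscle markers 1, Des, reached 1 FPKM (summed level of the list 1.27 to 2.24 FPKM), and of the fibroblast, endothelial and leukocyte markers 0 did. These are bulk libraries, in which fewer cells of a kind and less RNA per cell cannot be told apart.

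The mitochondrial ribosome makes the few proteins that are encoded in mitochondrial DNA, which are core subunits of the respiratory chain and of ATP synthase. Its own proteins are all encoded in the nucleus, made in the cytosol and imported, while its ribosomal RNAs are transcribed in the mitochondrion. Some of its proteins descend from bacterial ribosomal proteins and others occur only in mitochondria. The names do not always give the place: Mrps30 and Mrps18a are components of the large subunit in the mammalian particle, and Mrps36 is an adapter of the α-ketoglutarate dehydrogenase complex. They are kept here under the subunit of their name.

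The levels of different members cannot be read from FPKM alone. In genes with much intron, 80.6% to 83.8% of low values per library came out as whole reads, within 0.05 of a read, when the length was taken as the whole gene span with introns, and 10.6% to 11.1% did with exonic length, where chance gives 10%. The same steps put the depth of the libraries between about 11600000 reads for SFM siKLF4 and 23100000 reads for SFM siNT. Across the 77 members, log2 mean FPKM went down with log2 gene span (Pearson r = -0.80, Spearman rho = -0.81, a description across genes of the same libraries), while the values with the length term taken out (FPKM times span) did not follow it (r = -0.03). Levels of different genes are therefore compared here as exonic FPKM, which is FPKM times the gene span divided by the exonic length. The 13 members under 1 FPKM had a median span of 53958 bases, against 7004 bases for the 64 tested members.

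**Figure D1:**
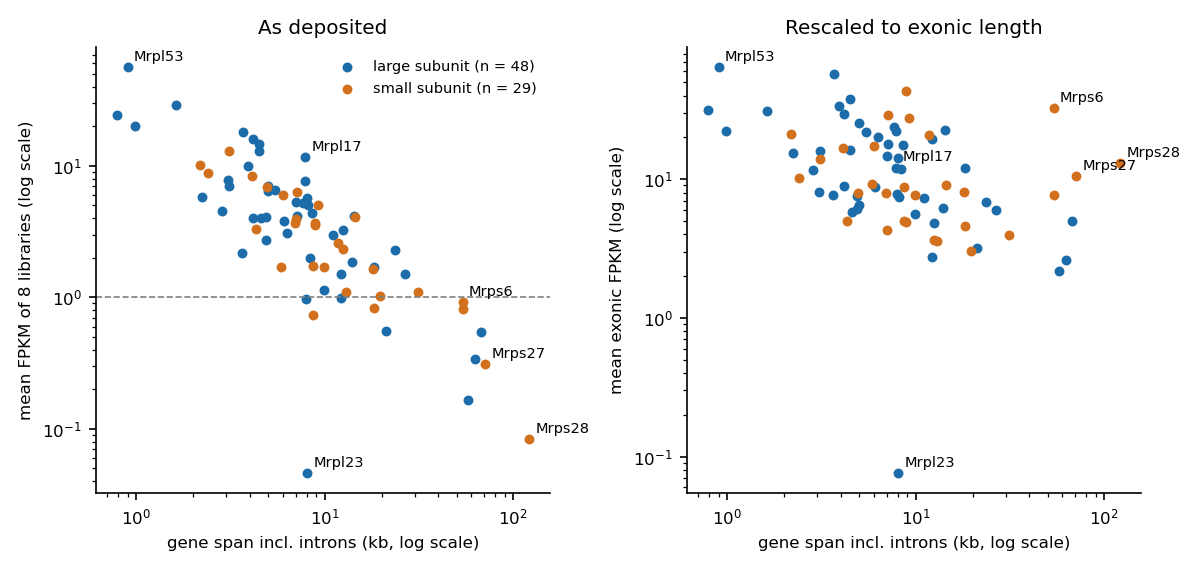
Left: mean FPKM of 8 libraries against gene span in kilobases for the 77 members, both axes logarithmic, with the dashed line at 1 FPKM. Right: the same genes as exonic FPKM. Values on the left decline with span (r = -0.80 on log values). On the right, Mrps28, Mrps27 and Mrps6 lie above the median of all members. Other long genes stay low there, such as Mrpl1 (2.19) and Mrpl48 (2.63), and Mrpl23 is lowest on both. How far exonic FPKM follows span was not tested.

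The threshold of 1 FPKM removed mostly long genes, but also Mrpl22, with a span of 7905 bases, and Mrpl23, with 8062. The 13 members left out had a median exonic FPKM of 4.99 against 11.9 for those tested. Of the 13, 3 lay above the median of all members. Mrps6, a homologue of a bacterial small subunit protein, had 0.92 FPKM but an exonic FPKM of 32.6, above that median of 9.22. Its span shares 29152 bases with Slc5a3, a protein-coding gene on the same strand with a mean of 0.84 FPKM. How far reads of Slc5a3 enter the level of Mrps6 was not tested. Mrps28 had 0.08 FPKM and 13.0 exonic FPKM, and Mrps27 had 0.31 FPKM and 10.5 exonic FPKM. The others were Mrpl1 (0.16 FPKM), Mrpl48 (0.34), Mrpl33 (0.54), Mrpl42 (0.55), Mrps36 (0.74), Mrps9 (0.81), Mrps31 (0.82), Mrpl22 (0.97) and Mrpl47 (0.99). Mrpl47 lay nearest below the threshold and Mrps5 (1.02 FPKM) nearest above it. Mrpl23 stood apart, with 0.05 FPKM and 0.0761 exonic FPKM, and why so few reads were assigned to it was not tested.

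Among the tested members, mean FPKM ran from 1.02 to 56.1 with a median of 4.15, and 12 members had more than 10 FPKM. The highest were Mrpl53 (56.1 FPKM), Mrpl43 (29.2), Mrpl34 (24.1), Mrpl41 (20.1) and Mrpl36 (18.2), all of the large subunit and all short genes. The lowest were Mrps5 (1.02), Mrps35 (1.09), Mrps22 (1.10), Mrpl21 (1.13) and Mrpl3 (1.5). In exonic FPKM, Mrpl53 (63.9) and Mrpl36 (57.5) were still at the top, followed by Mrps21 (42.8), a homologue of bacterial S21. Mrpl12, which forms the flexible stalk of the large subunit, had 37.9 exonic FPKM, and Mrpl10, which anchors that stalk, had 23.5. Mrpl45, a protein at the exit of the peptide tunnel, had 22.6. The 3 homologues of bacterial S18 differed: Mrps18b had 17.4, Mrps18c 9.22 and Mrps18a 8.04 exonic FPKM. Over all members, tested or not, the median on this scale was 11.9 for the 48 large and 8.73 for the 29 small subunit genes. The exonic length is the union of all annotated exons, so a gene with long or rare exons is understated.

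Most members varied little between conditions. The range of log2(FPKM + 1) over the 8 libraries had a median of 0.49 among the tested members and 0.59 among all 6917 genes tested. It was under 0.5 for 33 members and at least 1 for 5 of them. The widest ranges were those of Mrpl18 (1.37), Mrps18b (1.29), Mrpl38 (1.13), Mrpl24 (1.12) and Mrps16 (1.01). The narrowest were those of Mrpl19 (0.17), Mrps22 (0.18), Mrpl37 (0.21), Mrpl21 (0.22) and Mrpl39 (0.23). The added 1 narrows the range of genes of low FPKM, such as Mrps22, Mrpl21 (mean 1.13 FPKM) and Mrpl39 (1.69). Mrpl19, a large subunit protein with a bacterial homologue, kept between 4.62 FPKM in SFM siFN and 5.31 FPKM in TCM siKLF4-siFN.

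**Figure D2:**
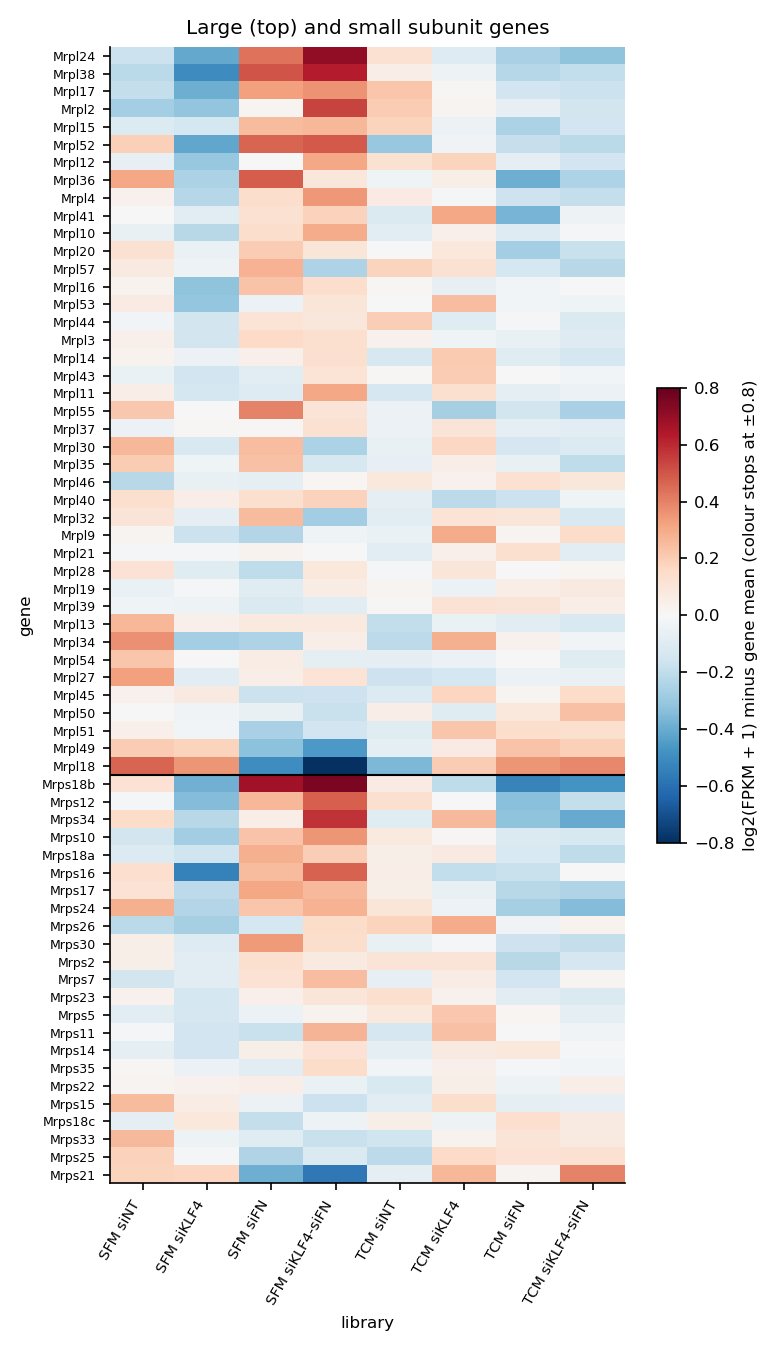
Each row is 1 of the 64 tested members, large subunit above the black line and small subunit below it, and each column is 1 library. Colour gives log2(FPKM + 1) minus the gene's mean over the 8 libraries, and stops at 0.8 in either direction. The strongest colours lie in the SFM siFN and SFM siKLF4-siFN columns, red for Mrps18b, Mrpl24 and Mrpl38 and blue for Mrpl18, Mrpl49 and Mrps21.

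As a group the members were lowest in SFM siKLF4 and highest in SFM siKLF4-siFN. The mean of log2(FPKM + 1) centred on each gene's own mean was 0.05 with siNT on SFM matrix, -0.13 with siKLF4, 0.07 with siFN and 0.10 with siKLF4-siFN. On TCM matrix it was -0.02 with siNT, 0.06 with siKLF4, -0.07 with siFN and -0.07 with siKLF4-siFN. These levels spanned 0.23 on the log2 scale, and 0.13 when the libraries were brought to equal median ratios, so the spread of the group depended on the scaling between libraries. The order did too. With each library set to the same sum, the highest was TCM siKLF4 (0.10) and the lowest TCM siKLF4-siFN (-0.09). With equal median ratios the highest was SFM siFN (0.07) and the lowest SFM siKLF4 (-0.06). SFM siKLF4 was the shallowest library and had the lowest sum of FPKM, 151330, while SFM siNT was the deepest and had the highest, 173957. How far depth enters the group's level was not tested.

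The large and the small subunit genes followed each other. Their centred means differed by -0.08 (SFM siKLF4-siFN, small subunit higher) to 0.05 (TCM siFN, large subunit higher), a range of 0.13. With only members of at least 5 FPKM that range was 0.44, so the agreement depended on the filter. In SFM siKLF4-siFN, where the gap was widest, the large subunit genes stood at 0.08 and the small subunit genes at 0.15. Cytosolic ribosomal proteins (83 tested) had their lowest mean in the same library as the members, -0.16 in SFM siKLF4, and their highest in SFM siFN, 0.20. The nuclear genes of the respiratory chain and ATP synthase (72 tested) were highest in SFM siNT, 0.16, and lowest in TCM siNT, -0.09, where the members stood at -0.02.

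**Figure D3:**
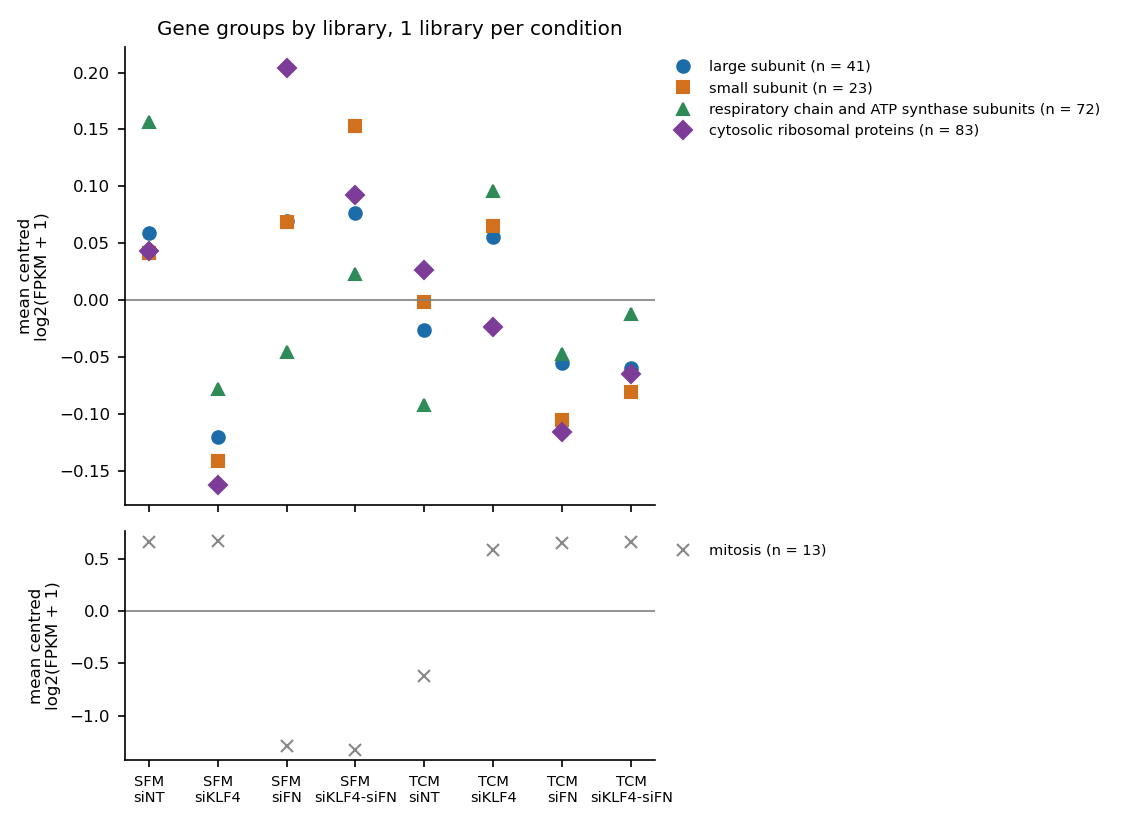
Mean of log2(FPKM + 1), centred per gene, for the genes of each group in each library. The upper panel shows the 2 subunits, the respiratory chain and the cytosolic ribosomal proteins within about 0.2 of their means. The lower panel, on a wider axis, shows 13 mitosis genes, which stood at -1.29 and -1.33 in the SFM libraries with siFN and at -0.62 in TCM siNT, whereas the remaining 5 libraries ranged from 0.59 to 0.67.

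The first question of the design is whether medium, siKLF4 or siFN on the smooth muscle cells alters the genes over all other conditions. With limma, a linear model over all genes with Benjamini-Hochberg adjustment, 0 of 64 members passed an adjusted p of 0.05 for any of the 3 effects, and 0% of all genes did. The model for these effects is additive, so an effect that depends on another factor enters its residual spread. A count of 0 there does not show that an effect is absent. At an unadjusted p under 0.05 there were 3 members for medium, 0 for siKLF4 and 0 for siFN, beside 464, 84 and 84 genes of all those tested. The median difference of the members was -0.05 for TCM minus SFM, -0.02 for siKLF4 and 0.01 for siFN, against 0.02, 0.01 and -0.02 over all genes. With each library set to the same sum the siKLF4 median was 0.01 and the siFN median -0.01, so neither had a stable sign.

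The members with the smallest p for medium were modest in size. Mrpl55, a mitochondria-specific large subunit protein, differed by -0.36 on the log2(FPKM + 1) scale (SE 0.09, adjusted p = 0.483). It had 2.63, 2.12, 3.12 and 2.36 FPKM in the SFM libraries with siNT, siKLF4, siFN and siKLF4-siFN, and 2.03, 1.60, 1.82 and 1.61 FPKM in the TCM libraries in that order. All 4 SFM libraries were thus above all 4 TCM libraries. Mrpl40 followed with -0.25 and Mrpl13 with -0.23, and in the other direction Mrpl46 (0.17), Mrpl39 (0.14) and Mrpl9 (0.21). For siKLF4 the smallest p belonged to Mrpl55 (-0.21), Mrpl35 (-0.16) and Mrpl57 (-0.19) below 0 and to Mrps11 (0.16), Mrpl41 (0.18) and Mrpl45 (0.12) above it. For siFN they belonged to Mrps15 (-0.18), Mrps21 (-0.27) and Mrpl57 (-0.17) and to Mrpl38 (0.36), Mrpl16 (0.17) and Mrpl52 (0.28).

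The second question is whether the effect of siFN depended on the medium. The test compares the TCM minus SFM difference with siFN against that without siFN. Of the 64 members, 6 passed (limma, adjusted p under 0.05), while 7.17% of all genes did. A positive value was found for 2 members, beside 3.83% of all genes, and a negative value for 4, beside 3.34%. The share of members that passed was thus near that of all genes. The large subunit held 5 of the 6 among its 41 genes and the small subunit 1 among 23. The estimates were below 0 for 43 of 64 members with a median of -0.24, and for 3762 of 6917 genes with a median of -0.06. The median was -0.20 in the large and -0.36 in the small subunit genes.

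Mrps18b, a small subunit protein and 1 of the 3 relatives of bacterial S18, had the largest negative estimate. On SFM matrix it stood at 6.21 FPKM with siNT, 4.11 with siKLF4, 9.60 with siFN and 10.2 with siKLF4-siFN, and at 5.99, 4.78, 3.60 and 3.79 in TCM with siNT, siKLF4, siFN and siKLF4-siFN. The SFM libraries with siFN were above all 6 others, and the TCM libraries with siFN were the lowest of the 8. The interaction was -1.29 (SE 0.25, adjusted p = 0.0432). The gene lies on chromosome 17 from 35910379 to 35916389 on the minus strand in mm10.

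Mrpl38, a mitochondria-specific protein of the central protuberance of the large subunit, had 4.26 and 3.30 FPKM on SFM matrix with siNT and siKLF4, and 7.64 and 8.43 FPKM there with siFN and siKLF4-siFN. On TCM matrix it had 5.31, 4.92, 4.21 and 4.32 FPKM in the same order of siRNA. The highest libraries were again those of SFM with siFN, with no overlap with the other 6. The interaction was -1.14 (SE 0.21, adjusted p = 0.0419).

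Mrpl24, a homologue of the bacterial protein that starts large subunit assembly, had 13.5 and 11.3 FPKM without siFN and 21.1 and 25.7 with it on SFM matrix. On TCM matrix it had 16.8, 14.2, 12.7 and 12.1 FPKM. It followed Mrpl38 in its pattern, with an interaction of -1.16 (SE 0.24, adjusted p = 0.0445).

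Mrpl17, whose bacterial relative sits near the peptide exit, had 9.90, 8.5, 14.6 and 14.98 FPKM in the SFM libraries with siNT, siKLF4, siFN and siKLF4-siFN. The TCM libraries had 13.5, 11.5, 10.2 and 10.1 FPKM. The SFM libraries with siFN were above the rest by a smaller margin than for Mrps18b, and the interaction was -0.91 (SE 0.20, adjusted p = 0.0478).

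Mrpl18, whose bacterial relative binds 5S ribosomal RNA, moved the other way. On SFM matrix it had 9.58 and 8.81 FPKM with siNT and siKLF4, but 4.43 with siFN and 3.09 with siKLF4-siFN. The TCM libraries had 4.98 FPKM with siNT, 7.83 with siKLF4, 8.80 with siFN and 8.99 with siKLF4-siFN. Both SFM libraries with siFN were below all others, with TCM siNT next to them, and the interaction was 1.56 (SE 0.32, adjusted p = 0.0432).

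Mrpl49, a mitochondria-specific large subunit protein, had 4.70, 4.60, 2.94 and 2.61 FPKM on SFM matrix and 3.70, 4.19, 4.80 and 4.65 FPKM on TCM matrix. It shared with Mrpl18 that the SFM libraries with siFN were lowest and TCM siNT was next. The interaction was 0.80 (SE 0.18, adjusted p = 0.0480).

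**Figure D4:**
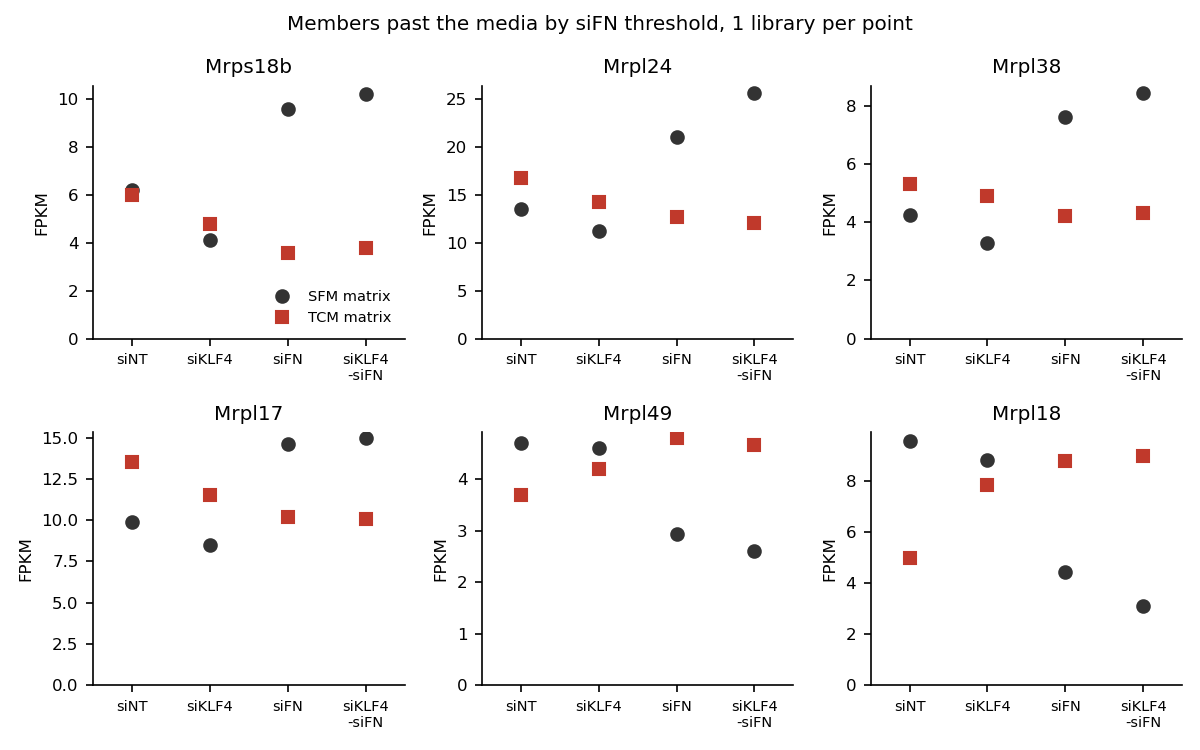
FPKM of the 6 members that passed the medium by siFN test, 1 point per library, circles for SFM and squares for TCM matrix, each panel on its own axis from 0. In the SFM libraries the 2 with siFN lie above the 2 without for Mrps18b, Mrpl24, Mrpl38 and Mrpl17 and below them for Mrpl49 and Mrpl18; the counting error per point, from the reads, was 2.03% to 8.42%.

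The 6 calls depended on single libraries. Leaving out TCM siNT, TCM siFN, TCM siKLF4-siFN or any SFM library except SFM siFN, 1 at a time, left 0 members that passed. In those fits at most 0.737% of all genes passed. Leaving out TCM siKLF4 left Mrpl18 alone, beside 7.99% of all genes, and leaving out SFM siFN gave 14 members, beside 29.9%. With a pseudocount of 0.1 in place of 1 the count was 0, beside 0% of all genes. There 19 members had an unadjusted p under 0.05, and the 6 members' adjusted p lay between 0.0502 and 0.0567. The sign of each of the 6 was the same in all these fits. With each library set to the same sum the 3 calls were all negative (0 positive), beside 4.03% of all genes. With equal median ratios 2 were positive and 3 negative, beside 6.16% of all genes. Equal median ratios also brought the median over all genes from -0.06 to 0.07 and that of the members from -0.24 to -0.10. The members' median was -0.16 without SFM siKLF4 and -0.14 without TCM siKLF4.

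**Figure D5:**
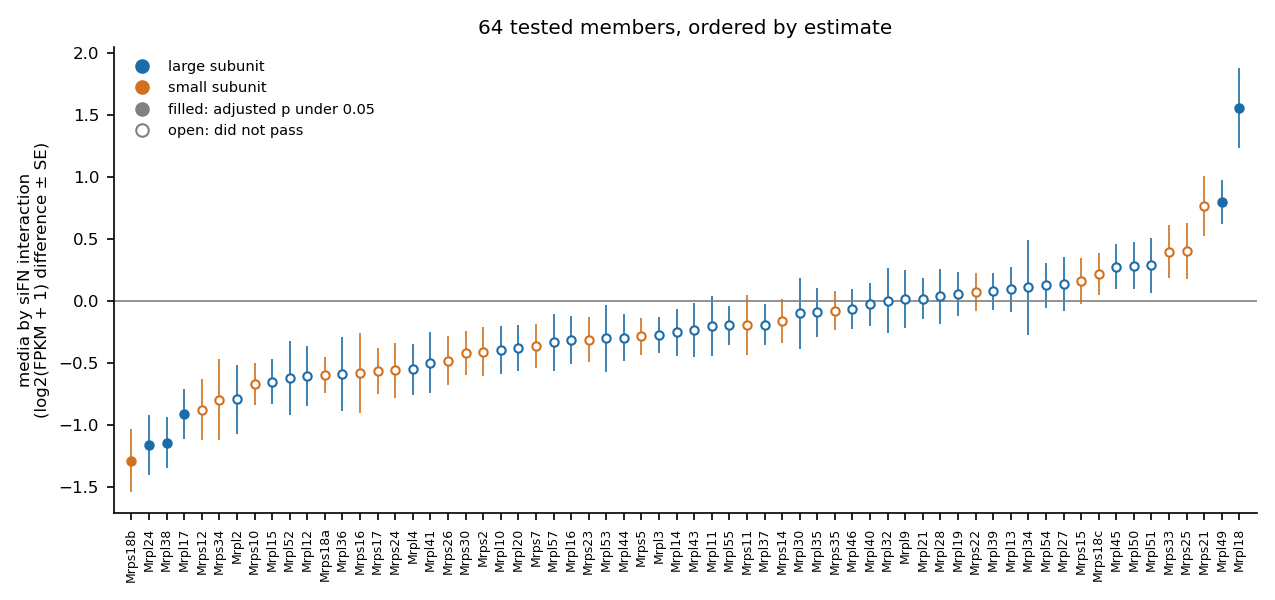
Estimate of the medium by siFN interaction for each of the 64 tested members in order of size, on the log2(FPKM + 1) scale, with its standard error from limma. Filled points passed an adjusted p of 0.05: Mrps18b, Mrpl24, Mrpl38 and Mrpl17 at the negative end, Mrpl49 and Mrpl18 at the positive end; 43 of the 64 estimates are below 0.

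The next members in order of p did not pass. Among them were Mrps18a, a large subunit component in spite of its name, with -0.60 (SE 0.15, adjusted p = 0.0576), Mrps10 with -0.67 (adjusted p = 0.0595) and Mrps21 with 0.77 (adjusted p = 0.0864). Mrps21 had 4.05, 4.03, 2.4 and 1.998 FPKM on SFM matrix and 3.25, 4.37, 3.53 and 4.87 FPKM on TCM matrix. Its SFM libraries with siFN were the lowest of the 8.

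Reads of neighbouring genes could enter some of these values, since how strands and overlaps were counted is not given in the sources used here. Of the 77 members, 41 are overlapped by another annotated gene and 13 by a protein-coding gene of at least 1 FPKM. Mrpl18 shares 645 bases with Tcp1, a cytosolic chaperonin subunit on the opposite strand with a mean of 36.5 FPKM. Tcp1 itself had an interaction of -0.07 (adjusted p = 0.832). Mrpl49 shares 91 bases with Syvn1, whose interaction was -0.66 (adjusted p = 0.0854), opposite in sign to that of Mrpl49. Mrpl24 shares 1072 bases with Rrnad1, whose interaction was -0.29 (adjusted p = 0.268). Mrpl17 and Mrps18b overlap only a pseudogene and an antisense gene, both under 0.1 FPKM.

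The effect of siFN was then read on each matrix. On SFM matrix, 6 members passed for siFN (limma), 4 higher and 2 lower, beside 6.92% of all genes, with 3.17% higher and 3.76% lower. Mrpl38 rose by 0.93 (SE 0.15, adjusted p = 0.0331), Mrpl24 by 0.86 (SE 0.17, adjusted p = 0.0420), Mrps18b by 0.85 (SE 0.18, adjusted p = 0.0442) and Mrpl17 by 0.64. Mrpl18 fell by 1.11 (SE 0.23, adjusted p = 0.0429) and Mrpl49 fell by 0.58 (SE 0.13, adjusted p = 0.0456). The median over members was 0.12, against 0.01 over all genes. On TCM matrix 0 members and 0% of genes passed for siFN. At an unadjusted p under 0.05 there was 1 member, Mrps18b (-0.44), beside 391 of all 6917 genes. The count for SFM matrix was 3 when TCM siNT or TCM siKLF4 was left out, beside 7.4% and 7.36% of all genes. It was 9 without SFM siFN, beside 26.5% of all genes. It was 0 when any of the 5 remaining libraries was left out, beside at most 1.01% of all genes.

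With siFN, 9 members passed for medium, 3 higher and 6 lower on TCM matrix, beside 16.9% of all genes, with 8.41% higher and 8.53% lower. Mrpl18 was higher by 1.07 (SE 0.23, adjusted p = 0.0343), Mrpl49 by 0.60 (adjusted p = 0.0337) and Mrps21 by 0.69 (adjusted p = 0.0420). Mrps18b differed by -1.22 (SE 0.18, adjusted p = 0.0243). Mrpl24 differed by -0.86 (adjusted p = 0.0328) and Mrpl38 by -0.78 (adjusted p = 0.0291). The remaining 3 members passed with smaller differences: Mrps17, a homologue of bacterial S17 (-0.52), Mrpl55 (-0.45) and Mrps18a (-0.40). The median of the members was -0.17 and that of all genes -0.01. Without siFN 0 members and 0% of genes passed for medium. At an unadjusted p under 0.05 there were 4 members, beside 627 of all 6917 genes. Leaving out either TCM library with siFN, or SFM siKLF4-siFN, brought the 9 calls to 0, beside 0% of all genes. Leaving out SFM siNT or SFM siKLF4 left 3, beside 7.16% and 7.24% of all genes. Leaving out TCM siNT or TCM siKLF4 left 5, beside 11.6% of all genes each time. Leaving out SFM siFN gave 16, beside 32.4% of all genes.

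The order of the libraries was also read without a model. Both SFM libraries with siFN were above all 6 others for 17 of 64 members, where 16.2% of all genes had that order, and below all 6 others for 6 members, where 16.4% of all genes did. Besides those that passed a test, the 17 included Mrpl10, Mrpl3, Mrpl4, Mrpl15, Mrpl16, Mrpl52, Mrps7, Mrps10, Mrps12, Mrps16 and Mrps30. The 6 were Mrpl18, Mrpl39, Mrpl45, Mrpl49, Mrpl51 and Mrps21. Mrps12, a homologue of the bacterial decoding-site protein S12, had 9.82, 7.56, 12.1 and 14.2 FPKM on SFM matrix and 10.9, 9.93, 7.65 and 8.55 FPKM on TCM matrix. Mrpl45 went the other way, with 4.24, 4.38, 3.53 and 3.56 FPKM on SFM and 3.73, 4.76, 4.18 and 4.66 FPKM on TCM matrix.

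The same SFM libraries with siFN were also lowest in genes of cell division, with TCM siNT next to them. In TCM siNT the mean centred level was -0.62 for mitosis and -0.36 for DNA replication genes. All 13 mitosis genes tested passed the medium by siFN test, with a median of 2.48, and 9 of 14 DNA replication genes did, beside 7.17% of all genes. With a pseudocount of 0.1 in place of 1, 0 of all 6917 genes passed that test. Whether the members' values moved with the share of dividing cells was not tested. Among melanocyte markers 1 of 6 passed. Cytosolic ribosomal proteins passed 0 of 83 times with a median of -0.32, and respiratory chain genes 2 of 72 times with a median of 0.04.

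The other interactions gave 0 members and 0% of all genes. Each of these models held only its own interaction, so the medium by siFN interaction entered its residual spread. A count of 0 there does not show that an interaction is absent. For medium by siKLF4, 1 member, Mrpl30 (0.57), had an unadjusted p under 0.05, and for siKLF4 by siFN 0 did. Of all 6917 genes, 78 and 40 did. The members' medians were 0.10 and 0.09, against 0.04 and 0.02 over all genes. With each library set to the same sum they were -0.0023 and -0.02.

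Other genes of mitochondrial translation were read from lists of known function. Of the mitochondrial ribosomal proteins under other names 0 of 6 tested passed the medium by siFN test, of the translation factors 0 of 7, of the assembly factors and rRNA modifiers 0 of 13 and of the mitochondrial transcription and RNA genes 0 of 10. The smallest p in these lists belonged to Aurkaip1, a small subunit protein (-0.84, adjusted p = 0.0621), Mtif2, the initiation factor (0.85, adjusted p = 0.0850), Mrm1, a methyltransferase of the large ribosomal RNA (-0.88, adjusted p = 0.0635), and Elac2, which cuts the 3′ ends of tRNAs (-0.62, adjusted p = 0.0545). With siFN, Mrm1 (-0.61), Ddx28 (-0.53), an assembly helicase, and Elac2 (-0.40) were lower on TCM matrix at an adjusted p of 0.0483, 0.0483 and 0.0471.

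Of 5 transcriptional regulators tested, 2 passed the medium by siFN test, beside 7.17% of all genes, and both were negative. These calls too were lost with a pseudocount of 0.1, where 0 of all 6917 genes passed. Myc, a transcription factor of growth genes, had 11.2, 9.97, 19.8 and 16.3 FPKM on SFM matrix with siNT, siKLF4, siFN and siKLF4-siFN and 20.002, 15.3, 12.8 and 13.1 FPKM on TCM matrix. Its interaction was -1.12 (SE 0.22, adjusted p = 0.0432). Pprc1, a coactivator of the PGC-1 family, had 1.18, 1.16, 1.98 and 2.17 FPKM on SFM matrix and 1.51, 1.31, 0.968 and 1.08 FPKM on TCM matrix, with an interaction of -0.75 (SE 0.15, adjusted p = 0.0432). Both genes were higher with than without siFN on SFM matrix, by 0.71 and 0.50 (adjusted p = 0.0456 for each). Gabpa, the DNA-binding part of an ETS factor of nuclear genes for mitochondria, had an interaction of 0.98 that did not pass (adjusted p = 0.0672). It was higher on TCM matrix with siFN by 0.69 (limma, adjusted p = 0.0499), where 16.9% of all genes passed in either direction. Gabpa had 2.07, 2.28, 1.62 and 0.65 FPKM on SFM matrix and 1.67, 1.53, 2.49 and 2.23 FPKM on TCM matrix. SFM siKLF4-siFN was thus the lowest library, while SFM siFN was close to TCM siNT and TCM siKLF4.

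Promoters of the members were searched for motifs of ETS factors, NRF1 and YY1, which are known from promoters of nuclear genes for mitochondrial proteins. A Myc motif was not searched. Nrf1 itself was at a mean of 0.38 FPKM and not tested. RefSeq promoters (GRCm38.p6, 250 bases before to 50 after the start) were at hand for 68 of the 77 members, 74 promoters in all. An ETS motif, CCGGAAG, was in 25 of them (33.8%), against 8.86% of 32851 promoters and 22.9% of 5428 promoters of genes tested here. The NRF1 motif GCATGCGC was in 8 (10.8%, against 2.71% and 6.67%) and the YY1 motif AAGATGGC in 12 (16.2%, against 2.75% and 6.02%). Both strands were searched, and 37 promoters (50%) held at least 1 of the 3 motifs, against 13.3% and 32.3%. Among the members that passed the medium by siFN test, the promoters of Mrpl17, Mrpl18 and Mrps18b held an ETS motif and those of Mrpl17 and Mrps18b also an NRF1 motif, Mrpl49 held the YY1 motif, and Mrpl24 held none of these letters. Mrpl38 was not matched. A match is a description of the letters and not a bound site.

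The 250 bases before the start of Mrpl17 and Mrps18b are shown, as the members that passed whose promoters hold both motifs. They lie at chr7:105811088-105811337 and chr17:35916441-35916690, both on the minus strand of GRCm38.p6. Capitals mark an ETS or NRF1 match on either strand, and the ETS match of Mrps18b lies after the start and is not shown.
Mrpl17: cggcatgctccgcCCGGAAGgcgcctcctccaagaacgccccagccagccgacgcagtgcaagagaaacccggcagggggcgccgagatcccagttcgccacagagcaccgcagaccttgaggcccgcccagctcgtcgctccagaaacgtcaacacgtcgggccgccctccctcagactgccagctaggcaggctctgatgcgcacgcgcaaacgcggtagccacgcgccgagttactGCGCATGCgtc
Mrps18b: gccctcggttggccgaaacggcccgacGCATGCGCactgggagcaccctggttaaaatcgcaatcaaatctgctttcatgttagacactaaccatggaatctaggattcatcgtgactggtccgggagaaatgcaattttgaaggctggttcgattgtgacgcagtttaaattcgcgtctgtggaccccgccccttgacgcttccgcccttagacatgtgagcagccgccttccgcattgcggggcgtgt
Mrpl17 has an ETS match far from the start and the NRF1 match close to it, in reverse complement. In Mrps18b the NRF1 match lies far upstream.

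Single libraries that differ in 1 factor can be set side by side, without a test. SFM siKLF4 was below SFM siNT for 57 of 64 members with a median of -0.17, against 3889 of 6917 genes and a median of -0.03. The direction was shared by 64 of 72 respiratory chain genes (median -0.22) and 68 of 83 cytosolic ribosomal protein genes (median -0.20). It depended on the scaling: with each library set to the same sum, 34 of 64 members were below, and with equal median ratios 48 were. As deposited, the lowest log2 differences among members of at least 5 FPKM in either library were those of Mrpl34 (31.1 FPKM in SFM siNT and 19.6 in SFM siKLF4), Mrpl52 (5.15 and 3.04) and Mrpl36 (22.3 and 14.8). TCM siKLF4 was above SFM siKLF4 for 54 of 64 members with a median of 0.18, against 0.08 over all genes, 0.20 for respiratory chain genes and 0.17 for cytosolic ribosomal protein genes. With equal median ratios 42 of the 64 were above, with a median of 0.06. Mrpl53 was at 44.9 FPKM in SFM siKLF4 and 66.5 in TCM siKLF4. Both comparisons share the SFM siKLF4 library, the shallowest of the 8.

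A difference of at least 1 on the log2 scale was rare among members. TCM siFN against SFM siFN had 1, Mrps18b at -1.21, beside 5.05% of all genes. TCM siKLF4-siFN against SFM siKLF4-siFN had 3, Mrpl18 at 1.29, Mrps18b at -1.23 and Mrpl24 at -1.03, beside 10.2% of all genes. SFM siKLF4-siFN against SFM siNT had 1, Mrpl18 at -1.37, beside 8.62% of all genes. No member differed by that much for SFM siKLF4 or SFM siFN against SFM siNT, where 0.723% and 3.66% of all genes did. The same held for TCM siNT against SFM siNT (2.43%) and TCM siKLF4 against SFM siKLF4 (1.32%). It held also for TCM siKLF4, TCM siFN and TCM siKLF4-siFN against TCM siNT, where 1.78%, 1.86% and 2.04% of all genes passed. The closest pair of libraries over the members was TCM siFN and TCM siKLF4-siFN, with a root mean square difference of 0.11, against 0.17 over all genes. In the 64 tested members these TCM libraries thus differed by less than any other pair.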

How the data were processed

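The authors deposited FPKM values for 8 libraries in 1 table. The alignment to mm10 used tools that the submitters' processing notes name as Partek and STAR 2.4.1d. How reads were counted, and with which annotation and strand setting, is not given in the sources used here. Of the rows, 90.2% matched the GENCODE mouse annotation by symbol. Depth and the length used were read from the steps of low FPKM values (at most 15 reads, span at least 5 times exonic length). Genes with a mean of at least 1 FPKM were tested on log2(FPKM + 1) with limma 3.58.1 (R 4.3.3, variance trend), two-sided, with Benjamini-Hochberg adjustment over all 6917 genes at 0.05. The additive model left 4 residual degrees of freedom and each model with an interaction 3. The code was tested on simulated data. Genes were named by a fixed rule: full statistics for members that passed, otherwise the 3 smallest p in each direction, and the extremes of level and range. Members, lists and tests were chosen with earlier results of these data known. Alternatives were the pseudocount, the filter, the scaling, gene length and GC, the length term, the siRNA treatment as a block and each library left out.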

Additional observations from a re-analysis of the deposited data

Results flagged for a closer look

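The difference between TCM and SFM matrix changed with siFN, by the interaction test of limma, for 6 members. On the log2(FPKM + 1) scale the TCM minus SFM difference with siFN less that without was -0.91 for Mrpl17, 1.56 for Mrpl18, -1.16 for Mrpl24, -1.14 for Mrpl38, 0.80 for Mrpl49 and -1.29 for Mrps18b. The share of members with such a difference, 6 of 64, was near that of all genes, 7.17%.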

How the results depend on the processing

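The medium by siFN count of 6 members became 0 with a pseudocount of 0.1 and 3 with each library set to the same sum. It was 3 with no filter on mean FPKM (4.15% of all genes). With 1 library left out it lay between 0 and 14 (0% to 29.9% of all genes). Over all genes tested, 496 passed that test, against 0 with the pseudocount of 0.1 and 279 with the same sum. The count of 9 for medium with siFN, beside 16.9% of all genes, became 4 with no filter (4.92%). It was 15 with adjustment for length and GC (19.3% of all genes). With 1 library left out it lay between 0 and 16 (0% to 32.4% of all genes). The count of 6 for siFN on SFM matrix, beside 6.92% of all genes, became 1 with a pseudocount of 0.1 (4.06%). It was 11 with adjustment for length and GC (9.73% of all genes). With 1 library left out it lay between 0 and 9 (0% to 26.5% of all genes). The spread of the members' level over libraries, 0.23, was 0.33 with a mean of at least 5 FPKM and 0.13 with equal median ratios. The spread of large minus small subunit, 0.13, was 0.44 with at least 5 FPKM, 0.17 with adjustment for length and GC and 0.18 with the length term removed, an alternative chosen after seeing the data. The cause of these shifts was not tested. The counts of 0 members for a contrast stayed 0 in all alternatives, and none of the members whose estimates were recomputed changed sign. Over all genes this did not hold. With no filter, 320 genes passed for medium without siFN and 149 for siFN on TCM matrix. The labels carry no replicate numbers by which to pair, but each SFM library can be paired with the TCM library of the same siRNA. With the siRNA treatment as a block for these 4 pairs, 0 of 64 members passed for medium in limma, with 1 at an unadjusted p under 0.05. Of all 6917 genes, 0 passed and 345 had an unadjusted p under 0.05. This alternative was added after seeing the data. Depth of 11600000 to 23100000 reads limits members with few reads.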
